A study of Mus musculus with 6 samples.

Results

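Chemokine and chemokine receptor genes were described in unstimulated bone marrow-derived macrophages (BMDMs) of WT and Scd2-KO mice. They were the protein-coding genes of the deposited count table whose symbols start with Ccl, Cxcl, Cx3cl, Xcl, Ccr, Cxcr, Cx3cr, Xcr or Ackr and a digit, with *Pf4* and *Ppbp* added. This rule gave 69 of 40481 genes, 46 ligands and 23 receptors, and used no measured value. BMDMs are bone marrow cells grown into macrophages in conditioned medium. The Scd2-KO mice carried floxed alleles of *Scd2*, which encodes a desaturase that makes monounsaturated fatty acids, and lysozyme M-Cre, which acts in myelomonocytic cells. Each genotype had 3 libraries. The labels give the controls as WT, and the sources used here do not say whether these mice carried floxed alleles or Cre, nor the age or sex of the mice behind a library. The study used young adult mice of both sexes. Nothing says that the 3 samples of a genotype came from separate mice, so the p-values measure the spread between these samples, which may be technical.

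Chemokines are small secreted proteins that guide leukocytes along gradients. They are named by the spacing of their first cysteines, as CC, CXC, CX3C or XC ligands. Their receptors couple to inhibitory G proteins and steer migration, and the atypical receptors bind chemokines without that signal and scavenge or store them. Macrophages make many CC and CXC ligands, which recruit monocytes, neutrophils and lymphocytes to tissue. They also carry receptors such as CCR2 and CX3CR1, by which monocytes and macrophages are themselves directed.

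Library totals ran from 46285176 to 57629638 counts, and those of the genotypes overlapped. Levels are given in CPM, the counts of a gene per 1000000 counts of a library whose size is adjusted with TMM factors, which correct for differences in RNA composition. Fold changes are given as log2 of Scd2-KO over WT, with the standard error (SE) of the fit. A library with 0 counts of a gene allows up to 3 counts, if each count is an independent molecule, which is not known here. That is between 0.0521 and 0.0648 per 1000000 counts without TMM adjustment, and it covers counting error only. *Scd2* had 66.9, 77.8 and 62.7 CPM in WT replicates 1, 2 and 3 and 59.5, 38.0 and 39.8 CPM in Scd2-KO replicates 1, 2 and 3 (log2 fold change −0.59, false discovery rate, FDR = 0.10 by edgeR). With each library left out in turn, its log2 fold change was −0.83 to −0.48, with an FDR of at most 0.277. The value of −0.83 (FDR = 8.87e-05, edgeR) was that without Scd2-KO replicate 1. Among 8 macrophage markers, *Lyz2*, the gene from which lysozyme M-Cre is driven, was at 22100 to 23230 CPM in WT and at 8661 to 9374 CPM in Scd2-KO libraries, and all 8 were present in every library. *Adgre1*, *Csf1r* and *Mertk* were also called lower (log2 fold changes −0.49, −0.38 and −0.33), *Cd68* was called higher (0.22), and *Itgam*, *Fcgr1* and *Cd14* were not called. *Xist* was at 658 to 842 CPM, and the Y-linked *Ddx3y*, *Eif2s3y* and *Kdm5d* had 0 counts, in every library, while the Y-linked *Uty* had 0.121, 0 and 0.0984 CPM in WT and 0 counts in Scd2-KO libraries. Of 8 markers of dividing cells, 8 were higher in Scd2-KO libraries, with a summed level of 40.4 to 49.2 CPM in WT and 132 to 139 CPM in Scd2-KO, and their part in the results was not tested. Of these markers, *Cenpf* passed the filter on low counts only through its Scd2-KO libraries. Over all genes tested, 9.65% were higher. Markers of B cells (4 of 6 tested, 2 called higher) and endothelial cells (3 of 5 tested, 1 called higher) were also looked up. Of mast cell and basophil markers 2 of 7 were tested, of fibroblast and stroma markers 3 of 8 and of erythroid markers 2 of 7, and 0 were called. Summed levels in WT and Scd2-KO were 0.304 to 0.705 and 0.735 to 1.29 CPM for mast cells and basophils. For erythroid cells they were 0.520 to 0.705 and 0.602 to 0.860 CPM. In bulk RNA, fewer cells of a type and less RNA per cell cannot be told apart.

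The bases just upstream of the annotated start site are shown for chemokine genes that lie beside each other or carry the same motif. They come from RefSeq (GRCm38.p6), run 5′ to 3′ on the strand of the gene, and end at the base before the start site. Of the 39 genes tested, 29 had a sequence, and *Ccl2*, *Ccl4*, *Ccl5*, *Ccl7*, *Ccl24*, *Ccr7*, *Ccr10*, *Cxcl16* and *Cxcr5* were among those that did not. Capitals mark matches to the kappa-B consensus of NF-kB, searched on both strands, with overlapping matches joined. *Ccl9* (chr11:83578637-83578886, minus strand) and *Ccl6* (chr11:83593088-83593337, minus strand) are neighbours that were both higher in Scd2-KO BMDMs, and *Ccl8* (chr11:82114935-82115184, plus strand) had the largest fold change of the ligands.
Ccl9: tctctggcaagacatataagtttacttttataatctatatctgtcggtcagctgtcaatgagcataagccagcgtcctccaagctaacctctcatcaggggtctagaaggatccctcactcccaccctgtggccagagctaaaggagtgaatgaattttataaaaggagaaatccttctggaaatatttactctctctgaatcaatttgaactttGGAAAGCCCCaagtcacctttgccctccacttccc
Ccl6: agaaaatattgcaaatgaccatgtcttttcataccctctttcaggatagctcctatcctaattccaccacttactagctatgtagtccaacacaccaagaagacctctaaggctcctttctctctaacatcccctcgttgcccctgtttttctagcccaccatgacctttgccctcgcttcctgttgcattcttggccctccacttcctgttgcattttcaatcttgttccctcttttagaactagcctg
Ccl8: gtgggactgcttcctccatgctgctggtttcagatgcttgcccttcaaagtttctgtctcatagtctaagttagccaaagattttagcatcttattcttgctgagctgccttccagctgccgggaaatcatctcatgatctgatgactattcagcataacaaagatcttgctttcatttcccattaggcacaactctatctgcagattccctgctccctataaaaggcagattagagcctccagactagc

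The next sequences belong to CXC ligands that were not called between the genotypes and that each hold a kappa-B match. *Cxcl1* (chr5:90890995-90891244, plus strand), *Cxcl2* (chr5:90903649-90903898, plus strand) and *Cxcl3* (chr5:90785851-90786100, plus strand) attract neutrophils and lie in the same cluster on chromosome 5. *Cxcl10* (chr5:92348890-92349139, minus strand) attracts T cells and lies further along that chromosome.
Cxcl1: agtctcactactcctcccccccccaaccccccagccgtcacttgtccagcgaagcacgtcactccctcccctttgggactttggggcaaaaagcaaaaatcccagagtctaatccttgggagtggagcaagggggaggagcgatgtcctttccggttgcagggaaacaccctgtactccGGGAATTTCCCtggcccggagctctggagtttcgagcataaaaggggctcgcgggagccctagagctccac
Cxcl2: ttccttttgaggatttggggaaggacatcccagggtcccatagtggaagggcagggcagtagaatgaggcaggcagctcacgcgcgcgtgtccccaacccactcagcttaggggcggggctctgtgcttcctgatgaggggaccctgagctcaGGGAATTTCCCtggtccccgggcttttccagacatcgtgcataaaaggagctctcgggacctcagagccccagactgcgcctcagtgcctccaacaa
Cxcl3: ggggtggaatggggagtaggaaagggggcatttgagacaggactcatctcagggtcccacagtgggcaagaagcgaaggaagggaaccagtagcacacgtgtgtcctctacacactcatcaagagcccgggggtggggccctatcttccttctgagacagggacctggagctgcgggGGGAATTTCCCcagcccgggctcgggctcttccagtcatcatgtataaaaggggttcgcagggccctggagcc
Cxcl10: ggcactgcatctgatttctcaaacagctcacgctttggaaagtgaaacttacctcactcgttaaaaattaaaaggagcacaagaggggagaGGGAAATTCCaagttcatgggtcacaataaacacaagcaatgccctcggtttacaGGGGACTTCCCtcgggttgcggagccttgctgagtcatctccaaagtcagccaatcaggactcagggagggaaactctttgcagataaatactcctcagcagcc

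The kappa-B match has the same letters in *Cxcl1*, *Cxcl2* and *Cxcl3*. It starts 71, 97 and 73 bases before the start site. *Cxcl10* has 2 separate stretches, which start 159 and 104 bases before its start site. Over the 29 genes with a sequence, 7 held a kappa-B match, against 7.25% of the 32851 RefSeq upstream windows of 250 bases. These were 2 of 6 genes called higher (*Ccl9* and *Ccr1*), 0 of 3 called lower and 5 of 20 not called (*Cxcl1*, *Cxcl2*, *Cxcl3*, *Cxcl10* and *Ccr3*). The TATA box (TATAAA, gene strand) was in 9 of the 29, against 7.59% of all windows, and among them *Ccl8* and *Ccl9* held it. The PU.1 core (AGGAAGT, both strands) was in 4 of the 29, *Ccl6* and *Pf4* included, against 7.69%, and a pair of GAAA half-sites with 2 bases between them (both strands), a motif of interferon response elements, in 2, *Cxcl10* and *Cxcl14*, against 2.98%. A match describes letters only.

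The question was which chemokine and receptor transcripts differed between WT and Scd2-KO BMDMs. Genes were compared with edgeR's quasi-likelihood test over all genes that passed a filter on low counts, and a gene was called at an FDR below 0.05 after Benjamini-Hochberg adjustment over all genes tested. Of the 69 genes, 39 passed the filter, and 9 of these were called higher and 5 lower in Scd2-KO BMDMs. Without WT replicate 2, 5 were called higher and 4 lower. Over all 14778 genes tested, 17.5% were called, 9.65% higher and 7.84% lower. The share of the 39 was 35.9% called, 23.1% higher and 12.8% lower. Of the 39, *Ccl7*, *Ccl22*, *Ccr7*, *Cxcr6* and *Ackr4* passed the filter through their Scd2-KO libraries. With 10 counts required in every library, 12 of 34 (35.3%) were called, against 18.5% of all genes so tested. *Ccl22* and *Ccr7* were not among these 34. The median log2 fold change of the 39 was 0.10, against 0.00387 over all genes tested. With 10 counts required in every library it was −0.043, without WT replicate 3 −0.013 and without Scd2-KO replicate 3 −0.0051. It stayed positive without each of the other libraries. Libraries of the genotypes did not overlap in 19 of the 39 genes (48.7%), against 34.9% of all genes tested. Past the study's stricter thresholds, which also ask for an absolute log2 fold change above 2, were *Ccl8* and *Ccr7*, while 0.663% of all genes tested passed both.

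**Figure D1:**
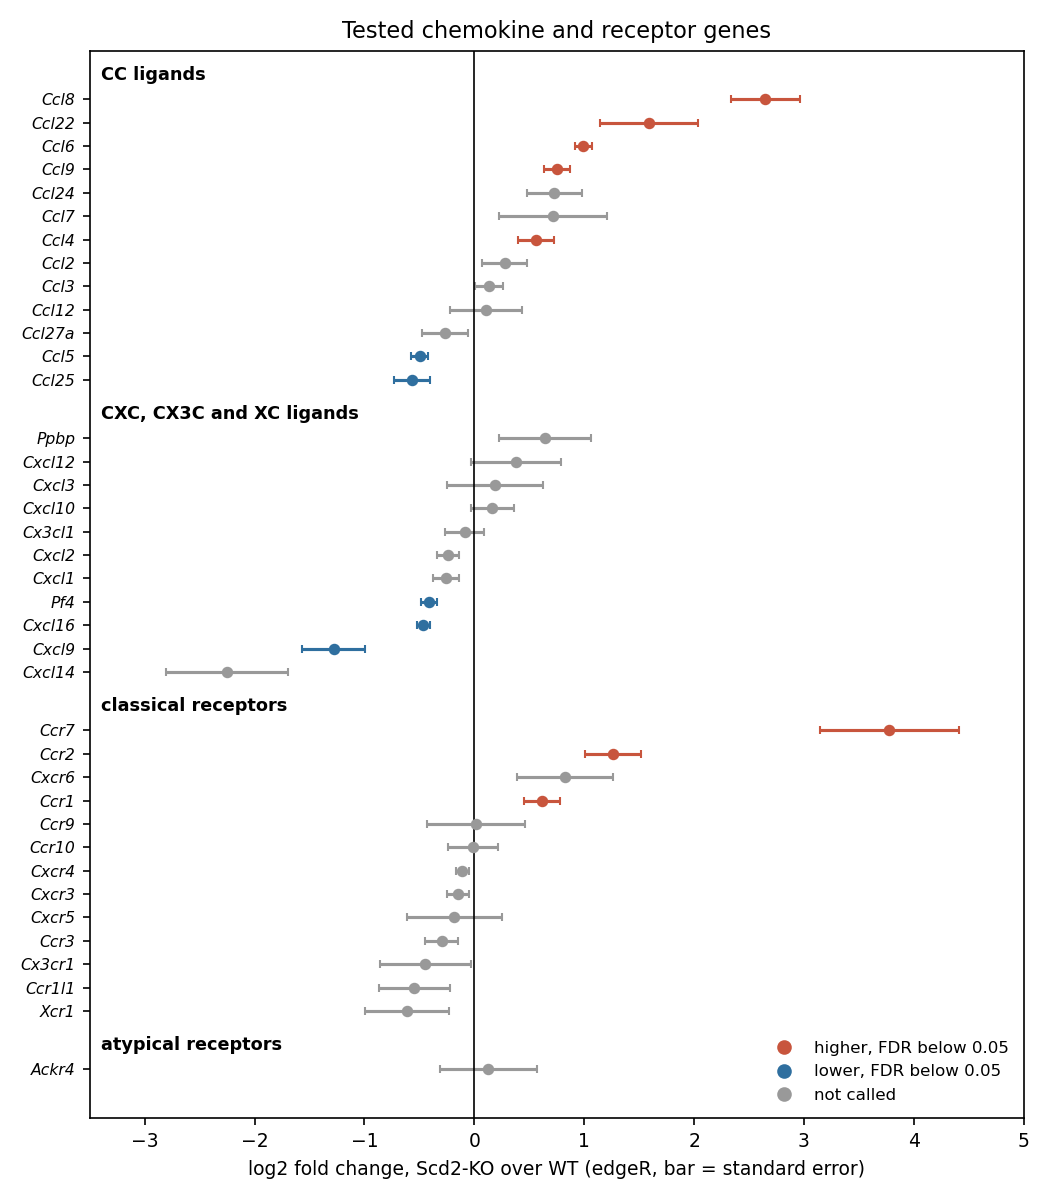
log2 fold changes of 38 of the 39 tested genes (x axis, Scd2-KO over WT, from edgeR; bars are standard errors), grouped by role on the y axis and coloured by call. Of the CC ligands 5 lie to the right and 2 to the left among those called, the 3 called CXC ligands lie to the left, and the called receptors lie to the right, with *Ccr7* at 3.78. Genes not called lie to both sides among the CC ligands, the CXC ligands and the classical receptors.

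The remaining 30 genes were too low to test. No count was found in any library for 13 of them, namely *Ccl1*, *Ccl20*, *Cxcl13*, *Cxcl15*, both entries of *Ccl19*, all entries of *Ccl21a*, *Ccl21b* and *Ccl21c*, and an entry of *Ccl27*. The CCL19 and CCL21 proteins guide CCR7-bearing cells into lymph nodes and are known as products of stromal cells. The *Ccl21* and *Ccl27* entries are near-identical copies, and the sources used here do not say how reads shared between copies were counted. The other 17 had at most 17 counts in a library. The highest of these was *Cxcr2*, a neutrophil receptor, with 8, 4 and 13 counts in WT and 10, 17 and 11 counts in Scd2-KO libraries. *Ccl17*, *Ccl28*, *Ccr4*, *Ccr6*, *Ccr8*, *Cxcr1*, *Cxcl5*, *Cxcl17*, *Xcl1*, *Ccl11*, *Ccl26* and the atypical receptors *Ackr1*, *Ackr2* and *Ackr3* were among them, as were *Ccl27b* and an entry of *Ccl27*.

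To compare levels between genes, CPM was divided by exonic length in kilobases (RPKM). *Ccl9* was the highest of the 69 genes on this scale, with a mean of 237 RPKM over the 6 libraries, followed by *Ccl6* with 180 RPKM. *Cxcl16*, which encodes a membrane-bound ligand that also takes up oxidized lipoprotein, had 120 RPKM, and *Cxcr4*, the receptor of CXCL12, had 117 RPKM. Among the next were *Ccl3* with 88.4, *Pf4* with 65.9, *Ccl5* with 36.8, *Ccl4* with 15.4 and *Cx3cr1* with 13.9 RPKM. *Cxcl16* and *Cxcr4* are neighbours in this order whose ranges over libraries overlap, at 95.8 to 146 and 109 to 126 RPKM. In WT libraries *Cxcl16* (134 to 146 RPKM) was above *Ccl6* (118 to 126 RPKM), and in Scd2-KO libraries *Ccl6* (212 to 262 RPKM) was above *Cxcl16* (95.8 to 104 RPKM).

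Summed over the ligands, the level was 1442 ± 107 CPM in WT and 1867 ± 207 CPM in Scd2-KO libraries (SD, n = 3 each). *Ccl6* and *Ccl9* alone gave 52.2% ± 1.26 of that sum in WT and 71.4% ± 2.08 in Scd2-KO libraries. Without them, the other ligands summed to 662 to 726 CPM in WT and to 510 to 561 CPM in Scd2-KO libraries. These sums follow the most abundant genes and carry no test.

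Among CC ligands, 13 of 30 were tested, and 5 were called higher, 2 lower and 6 neither. That is 38.5% higher and 15.4% lower, beside 9.65% and 7.84% of all genes tested. The most abundant CC ligands, *Ccl9* and *Ccl6*, were both higher in every Scd2-KO library than in any WT library. *Ccl9* (ENSMUSG00000019122), whose product signals through CCR1, had 614, 495 and 504 CPM in WT replicates 1, 2 and 3 and 793, 855 and 1066 CPM in Scd2-KO replicates 1, 2 and 3. The mean (SD, n = 3 each) rose from 538 ± 65.9 to 905 ± 143 CPM, with a log2 difference of 0.75 ± 0.12 (SE, FDR = 0.00204 by edgeR). *Ccl6* (ENSMUSG00000018927), a related chemokine of mouse myeloid cells, had 226, 211 and 212 CPM in WT and 380, 441 and 471 CPM in Scd2-KO libraries. It rose from 216 ± 8.06 to 431 ± 46.3 CPM, to 199% of the WT mean (log2 fold change 0.99 ± 0.08 SE, FDR = 1.49e-06 by edgeR). The WT values of *Ccl6* lay close together, and the Scd2-KO values spread further.

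*Ccl8* had the largest fold change of the ligands, from a low level. *Ccl8* (ENSMUSG00000009185), which in the mouse acts on CCR8, had 12, 30 and 32 counts in WT and 135, 208 and 175 counts in Scd2-KO replicates 1, 2 and 3. That is 0.507 ± 0.230 and 3.19 ± 0.873 CPM, with a log2 difference of 2.65 ± 0.31 (SE, FDR = 8.41e-05 by edgeR). Every Scd2-KO library was above every WT library. *Ccl22*, a ligand of CCR4 known from dendritic cells and alternatively activated macrophages, had 25, 16 and 8 counts in WT and 85, 28 and 55 counts in Scd2-KO libraries. Its groups lie close, at 0.504 CPM in the highest WT and 0.557 CPM in the lowest Scd2-KO library, with a log2 difference of 1.59 ± 0.44 (SE, FDR = 0.0245 by edgeR). The call of *Ccl22* was lost without WT replicate 2 or 3 or Scd2-KO replicate 1 or 3, with an FDR of at most 0.116. *Ccl4*, a macrophage inflammatory protein, had 9.05, 6.33 and 9.31 CPM in WT and 10.7, 11.02 and 14.8 CPM in Scd2-KO libraries. These gave a log2 difference of 0.56 ± 0.16 (SE, FDR = 0.0352 by edgeR), and the call was lost without WT replicate 2 (0.41, FDR = 0.103), Scd2-KO replicate 2 (0.63, FDR = 0.0607) or Scd2-KO replicate 3 (0.40, FDR = 0.110).

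The CC ligands called lower were *Ccl5* and *Ccl25*. *Ccl5* (ENSMUSG00000035042), which encodes RANTES, a ligand of CCR1 and CCR3, had 41.6, 37.9 and 44.6 CPM in WT and 31.6, 26.9 and 29.2 CPM in Scd2-KO libraries. All Scd2-KO values lay below all WT values, and the log2 difference was −0.50 ± 0.08 (SE, FDR = 6.07e-04 by edgeR). *Ccl5* is also a transcript of T and NK cells. Of 8 T cell markers 2 were tested and 0 called, with summed levels of 28.0 to 44.6 CPM in WT and 34.9 to 37.8 CPM in Scd2-KO. Nearly all of that sum was *Cd4*, and *Cd3e*, *Cd3d*, *Cd3g*, *Cd8a* and *Trac* had 0 to 5 counts in a library. Of 6 NK cell markers 0 were tested, with summed levels of 0.118 to 0.141 CPM in WT and 0.0688 to 0.279 CPM in Scd2-KO, *Klrb1c* had 2 to 7 counts in a library, and *Ncr1* and *Gzma* had 0 counts in every library. Their part in the *Ccl5* result was not tested. *Ccl25*, a ligand of CCR9 known from thymus and gut, had 3.10, 3.06 and 2.77 CPM in WT and 1.92, 2.25 and 1.86 CPM in Scd2-KO libraries (log2 fold change −0.57 ± 0.16 SE, FDR = 0.0280 by edgeR). Its call was lost without WT replicate 1 or 2 or Scd2-KO replicate 1 or 3, with an FDR of at most 0.0977. Of its 7445 exonic bases, 204 are shared with *Elavl1* on the other strand, which had 14050 counts over the 6 libraries against 764 for *Ccl25*, and the sources used here do not say whether the counting used strand.

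The 6 other tested CC ligands were not called. *Ccl3*, a macrophage inflammatory protein that binds CCR1, had 66.9, 59.4 and 67.5 CPM in WT and 58.4, 68.4 and 85.8 CPM in Scd2-KO libraries, so that the groups overlapped (log2 fold change 0.13 ± 0.13 SE, FDR = 0.538 by edgeR). *Ccl2*, the main ligand of CCR2, had 2.70, 3.66 and 5.45 CPM in WT and 4.64, 4.97 and 4.73 CPM in Scd2-KO libraries. The Scd2-KO values lay within the WT range, with a log2 difference of 0.28 ± 0.20 (SE, FDR = 0.397 by edgeR), and without WT replicate 3 it was 0.59 (FDR = 0.0284, edgeR). With each library left out in turn it was 0.064 to 0.59, with an FDR of at most 0.85. *Ccl24*, an eosinophil attractant that binds CCR3, had 0.705, 1.17 and 1.12 CPM in WT and 1.36, 1.85 and 1.75 CPM in Scd2-KO libraries. Its groups did not overlap (log2 fold change 0.73 ± 0.25 SE, FDR = 0.0587 by edgeR), and it passed the threshold with all genes that had a count in the test (FDR = 0.0391) and without Scd2-KO replicate 1 (FDR = 0.0466). *Ccl7*, *Ccl12* and *Ccl27a* had log2 fold changes of 0.71 ± 0.49, 0.10 ± 0.33 and −0.27 ± 0.21 (SE).

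**Figure D2:**
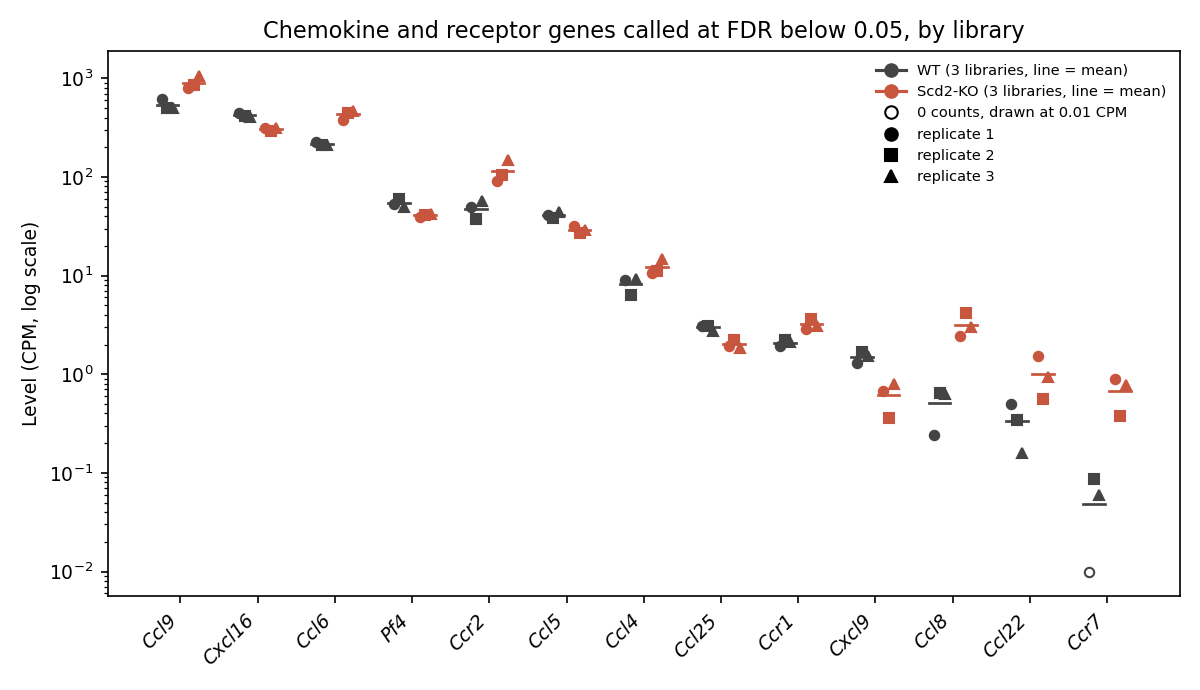
Level of 13 of the 14 called genes in each library (y axis, CPM on a log scale), with WT in dark grey and Scd2-KO in red, lines at the group means a symbol shape for each replicate and 0 counts drawn at 0.01 CPM. The 13 genes were called from these same libraries, and the groups do not overlap in any of them. Of all genes tested, called or not, 34.9% did not overlap. Levels run from 0 counts of *Ccr7* in WT replicate 1 to 1066 CPM of *Ccl9* in Scd2-KO replicate 3.

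Among the CXC, CX3C and XC ligands, 11 of 16 were tested, and 0 were called higher, 3 lower and 8 neither. That is 0% higher and 27.3% lower, beside 9.65% and 7.84% of all genes tested. *Cxcl16* (ENSMUSG00000018920), the ligand of CXCR6, was the most abundant of these ligands. It had 442, 418 and 404 CPM in WT and 312, 289 and 315 CPM in Scd2-KO replicates 1, 2 and 3. The mean fell from 422 ± 19.6 to 306 ± 14.3 CPM, to 72.5% of WT (log2 fold change −0.46 ± 0.06 SE, FDR = 1.89e-04 by edgeR), and no Scd2-KO value reached the WT range. Of its 3021 exonic bases 552 are shared with *Zmynd15* on the other strand, which was also lower in Scd2-KO BMDMs (63.5 to 38.3 CPM on average, log2 fold change −0.73, FDR = 3.56e-05, edgeR) and had 15593 counts over the 6 libraries against 112074 for *Cxcl16*.

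*Pf4* (ENSMUSG00000029373), which encodes platelet factor 4 and is also made by macrophages, had 53.3, 59.5 and 50.01 CPM in WT and 39.1, 41.5 and 41.7 CPM in Scd2-KO libraries. The groups did not overlap (log2 fold change −0.41 ± 0.07 SE, FDR = 0.00126 by edgeR). Its neighbour *Ppbp*, another platelet chemokine, was at 0.202 to 0.630 CPM in WT and 0.458 to 0.986 CPM in Scd2-KO and was not called (FDR = 0.334). Of 7 markers of megakaryocytes and platelets 4 were tested and 0 called, with summed levels of 10.5 to 10.97 CPM in WT and 8.69 to 10.1 CPM in Scd2-KO. *Cxcl9* (ENSMUSG00000029417), an interferon-gamma-induced ligand of CXCR3, had 1.31, 1.67 and 1.51 CPM in WT and 0.681, 0.358 and 0.791 CPM in Scd2-KO libraries. It fell to 40.7% of WT (log2 fold change −1.28 ± 0.29 SE, FDR = 0.00734 by edgeR), with 65 to 77 counts in a WT library and 18 to 46 in a Scd2-KO library.

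*Cxcl14* had the most negative log2 fold change of the 39 genes and was not called. It had 51.2, 30.4 and 17.4 CPM in WT and 9.53, 6.94 and 4.34 CPM in Scd2-KO replicates 1, 2 and 3. Every Scd2-KO library was below every WT library, and the WT values spread widely. The mean was 33.01 ± 17.02 CPM in WT and 6.94 ± 2.60 CPM in Scd2-KO libraries, a log2 difference of −2.25 ± 0.55 (SE, FDR = 0.0662 by edgeR). It passed the threshold with DESeq2 (FDR = 3.22e-04), with limma-voom (FDR = 0.00277), with protein-coding genes alone (FDR = 0.0474) and without WT replicate 3 (FDR = 0.0491). With a library left out, its log2 fold change was −2.56 to −1.79, with an FDR of at most 0.196. CXCL14 is known as a chemokine of epithelia and stroma. Of 8 markers of fibroblasts and stroma 3 were tested and 0 called, with summed levels of 2.44 to 4.37 CPM in WT and 2.96 to 3.35 CPM in Scd2-KO.

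The neutrophil attractants *Cxcl1*, *Cxcl2* and *Cxcl3*, the interferon-induced *Cxcl10*, the CX3CR1 ligand *Cx3cl1*, the CXCR4 ligand *Cxcl12* and *Ppbp* were tested and not called. *Cxcl2*, the more abundant neutrophil attractant in CPM, had 23.9, 19.5 and 17.5 CPM in WT and 16.1, 17.4 and 18.1 CPM in Scd2-KO libraries (log2 fold change −0.24 ± 0.10 SE, FDR = 0.136 by edgeR). *Cxcl1* had 7.63, 7.52 and 6.51 CPM in WT and 5.79, 5.57 and 6.71 CPM in Scd2-KO libraries (log2 fold change −0.26, FDR = 0.158, edgeR). In both genes a Scd2-KO library lay inside the WT range. *Cxcl10* had 15.2, 17.98 and 26.2 CPM in WT and 20.2, 22.6 and 23.6 CPM in Scd2-KO libraries, with a log2 fold change of 0.16 (FDR = 0.645, edgeR). Without WT replicate 3, *Cxcl10* was called higher (0.42, FDR = 0.0115) and *Cxcl2* lower (−0.34, FDR = 0.0340).

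Among the 19 classical receptors, 14 were tested, and 4 were called higher, 0 lower and 10 neither. That is 28.6% higher and 0% lower, beside 9.65% and 7.84% of all genes tested. Of the 14 receptors, 6 had a log2 fold change above 0, and their median was −0.059. *Ccr2*, *Ccr1* and *Ccr7* were among the receptors called higher. *Ccr2* (ENSMUSG00000049103), the receptor by which monocytes leave the bone marrow, had 49.5, 37.6 and 56.5 CPM in WT and 89.9, 106 and 148 CPM in Scd2-KO replicates 1, 2 and 3. The mean rose from 47.9 ± 9.57 to 115 ± 30.1 CPM, to 240% of WT (log2 fold change 1.26 ± 0.25 SE, FDR = 0.0311 by edgeR). All Scd2-KO values were above all WT values. Its FDR was 0.0517 to 0.107 without WT replicate 1, 2 or 3 or without Scd2-KO replicate 2, and 0.0805 with all genes that had a count in the test, while the log2 fold change without each library in turn was 1.03 to 1.41. Of 8 markers of monocytes and progenitors, 5 of 7 tested were higher. Of these 5, *Flt3* and *Prtn3* passed the filter only through their Scd2-KO libraries, where they were high. Over all genes tested, 9.65% were higher and 7.84% lower. The 8 markers had summed levels of 3.78 to 5.98 CPM in WT and 12.0 to 12.8 CPM in Scd2-KO libraries. *Cd34* and *Kit* were not called (log2 fold changes −0.50 and 0.99). *Ms4a3* was not tested, with 0 counts in WT and 6, 0 and 3 counts in Scd2-KO replicates 1, 2 and 3. Of 10 neutrophil markers 5 were higher and 1 lower (summed level 169 to 179 CPM in WT and 152 to 182 CPM in Scd2-KO). Most of that sum was *Csf3r*, which was called lower. Among those called higher were *S100a9* (2.48 to 3.18 CPM in WT and 7.24 to 10.3 CPM in Scd2-KO) and *Ngp* (2.06 to 3.42 CPM in WT and 6.54 to 9.69 CPM in Scd2-KO). *Elane* and *Camp* were not called. The part of these markers in the *Ccr2* result was not tested.

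*Ccr1*, a receptor of CCL3, CCL5 and CCL9, had 1.91, 2.21 and 2.15 CPM in WT and 2.87, 3.64 and 3.10 CPM in Scd2-KO libraries (log2 fold change 0.61 ± 0.17 SE, FDR = 0.0203 by edgeR). The groups did not overlap, and its FDR was 0.0549 without WT replicate 1, 0.0524 without WT replicate 2 and 0.113 without Scd2-KO replicate 2.

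*Ccr7*, which takes dendritic cells and lymphocytes to lymph nodes, had 0, 4 and 3 counts in WT and 50, 19 and 45 counts in Scd2-KO replicates 1, 2 and 3. It was near the detection floor in WT, at 0.0486 ± 0.0443 CPM, and at 0.683 ± 0.271 CPM in Scd2-KO libraries (log2 fold change 3.78 ± 0.63 SE, FDR = 9.36e-04 by edgeR). It kept an FDR of at most 0.00620 without each library in turn. It passed the filter only through its Scd2-KO libraries, where it was high. With 10 counts required in every library it was not tested. Among 7 dendritic cell markers, *Fscn1* was called higher and the others were not called or not tested. Their summed levels, mostly *H2-Ab1*, were 178 to 278 CPM in WT and 168 to 212 CPM in Scd2-KO. *Fscn1* had 0.282 to 0.335 CPM in WT and 0.597 to 1.00 CPM in Scd2-KO libraries, and its part in the *Ccr7* and *Ccl22* results was not tested.

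The receptors *Cxcr4* and *Cx3cr1* were abundant and not called. *Cxcr4* had 218, 215 and 228 CPM in WT and 205, 198 and 211 CPM in Scd2-KO libraries. The groups did not overlap but lay close, with a log2 difference of −0.11 ± 0.06 (SE, FDR = 0.224 by edgeR). *Cx3cr1*, the fractalkine receptor of monocytes and tissue macrophages, had 115 CPM in WT replicate 1 and 56.5 and 45.8 CPM in WT replicates 2 and 3. The Scd2-KO libraries had 61.2, 50.9 and 47.4 CPM, within the range of WT replicates. The log2 difference was −0.45 ± 0.41 (SE, FDR = 0.550 by edgeR), and without WT replicate 1 it was 0.06 (FDR = 0.804, edgeR). *Cxcr3*, *Ccr3*, *Ccr10*, *Ccr9*, *Cxcr5*, *Cxcr6*, *Ccr1l1* and *Xcr1* were tested and not called, with log2 fold changes between −0.61 (*Xcr1*) and 0.83 (*Cxcr6*). Of the atypical receptors, only *Ackr4* was tested, at 0.181 to 0.354 CPM in WT and 0.233 to 0.438 CPM in Scd2-KO libraries (FDR = 0.883, edgeR).

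**Figure D3:**
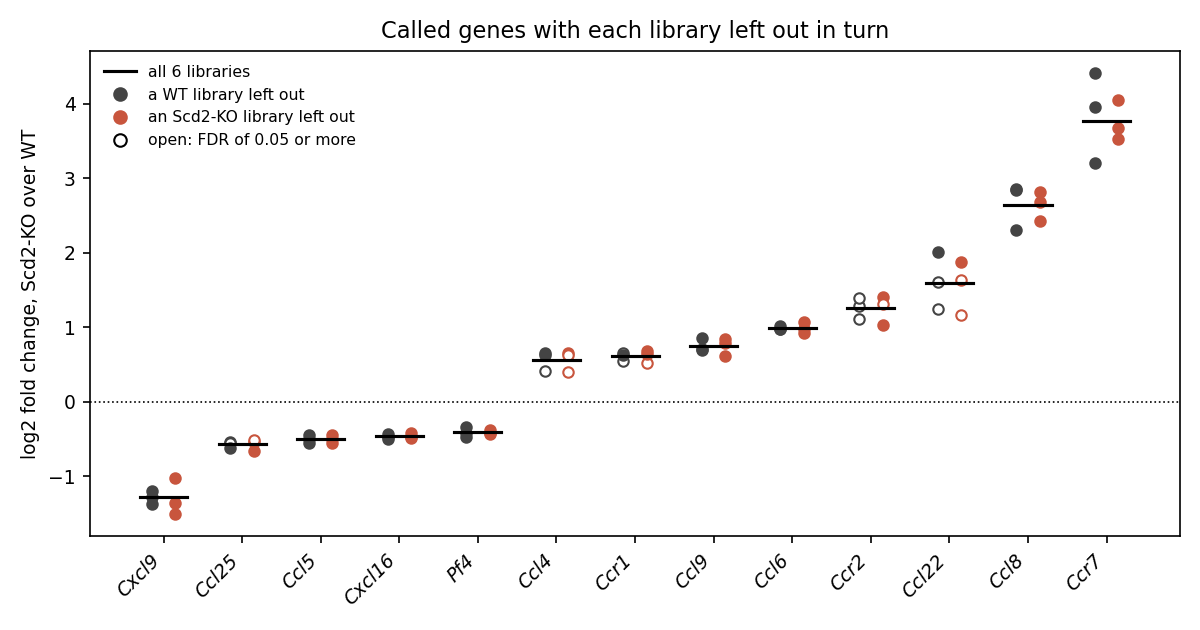
log2 fold changes of 13 of the 14 called genes (y axis, Scd2-KO over WT) with all 6 libraries (black lines) and with each library left out in turn (points, open where the FDR was 0.05 or more). All points keep the sign of the line, and open points appear for *Ccl4*, *Ccl25*, *Ccl22*, *Ccr1* and *Ccr2*.

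With each library left out in turn, 8 of the 14 called genes stayed called and 6 lost the call at least once, and none of the 14 changed sign. Those that stayed called were *Ccl9*, *Ccl6*, *Ccl5*, *Ccl8*, *Cxcl16*, *Pf4*, *Cxcl9* and *Ccr7*. Of these, *Ccr7* passed the filter only through its Scd2-KO libraries, where it was high.

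Many chemokine genes lie in clusters, and in some of these neighbours differed in direction. Positions are on GRCm38. On chromosome 11, from 83525778 to 83664683, lie *Ccl5*, *Ccl9*, *Ccl6*, *Ccl3* and *Ccl4* in this order, with log2 fold changes of −0.50, 0.75, 0.99, 0.13 and 0.56. This stretch thus held 3 genes called higher, 1 called lower and 1 not called. From 82035571 to 82305690 on the same chromosome lie *Ccl2*, *Ccl7*, *Ccl11*, *Ccl12*, *Ccl8* and *Ccl1*, of which 4 were tested and *Ccl8* was called. The tested neighbours *Ccl2*, *Ccl7* and *Ccl12*, ligands of CCR2, had log2 fold changes of 0.28, 0.71 and 0.10.

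On chromosome 9, from 123678439 to 124113557, lie *Ccr9*, *Cxcr6*, *Xcr1*, *Ccr1*, *Ccr1l1*, *Ccr3* and *Ccr2* in map order. All 7 were tested, and *Ccr1* and *Ccr2* were called higher and 0 lower. *Ccr3*, which lies between *Ccr1* and *Ccr2*, had a log2 difference of −0.30 ± 0.15 (SE, FDR = 0.213 by edgeR). On chromosome 5, from 90759360 to 90905938, 5 of 7 CXC genes were tested and *Pf4* was called lower. *Cxcl9* and *Cxcl10* share a stretch of chromosome 5 from 92321347 to 92348889. *Cxcl9* was called lower at −1.28, and *Cxcl10* had 0.16.

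**Figure D4:**
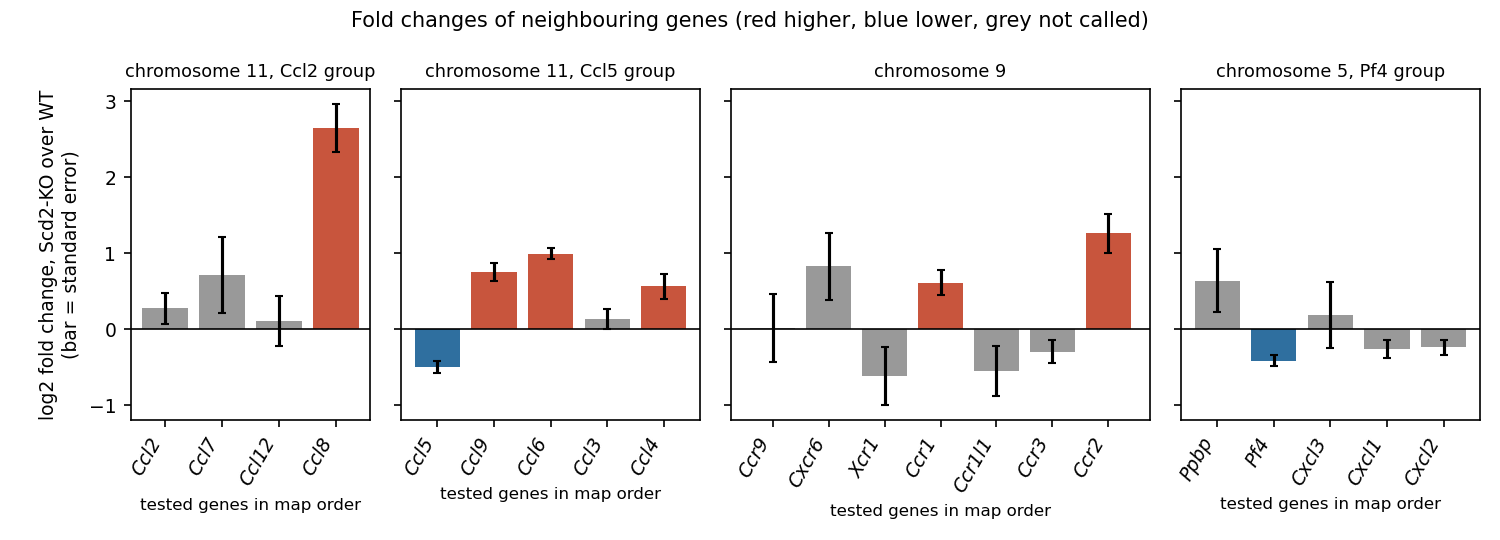
log2 fold changes (bars on the y axis, Scd2-KO over WT; whiskers are standard errors) of tested genes of 4 clusters in map order (x axis), with genes called higher in red, lower in blue and not called in grey. In the *Ccl5* group *Ccl5* is at −0.50 beside *Ccl9* at 0.75, and in the chromosome 9 group *Ccr3* is at −0.30 beside *Ccr2* at 1.26.

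Ligands and their receptors can be read side by side. For CCR2, the receptor transcript was called higher and the ligands *Ccl2*, *Ccl7* and *Ccl12* were not called. For CCR1, *Ccr1* and the ligand *Ccl9* were called higher, the ligand *Ccl5* was called lower and the ligand *Ccl3* was not called. For CXCR6, the ligand *Cxcl16* was called lower, while *Cxcr6* was at 0.130 to 0.282 CPM in WT and 0.298 to 0.499 CPM in Scd2-KO libraries (log2 fold change 0.83 ± 0.44 SE, FDR = 0.226 by edgeR). For CXCR3, *Cxcl9* was called lower, and *Cxcl10* and *Cxcr3* (12.5 to 16.4 CPM in WT and 12.5 to 13.2 CPM in Scd2-KO) were not called. For CCR7, the receptor was called higher and the *Ccl19* and *Ccl21* entries had 0 counts in all 6 libraries. For CCR4, *Ccl22* was called higher, and *Ccl17* and *Ccr4* were too low to test.

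Genes that work around the chemokine system were counted in 4 lists written from general knowledge. Of 42 tested genes of chemokine receptor signalling, 3 were higher and 15 lower, and the median over the list was −0.12 on the log2 scale. The count of 18 fell to 7 without WT replicate 2, to 6 without Scd2-KO replicate 2 and to 10 without Scd2-KO replicate 3. *Src*, a tyrosine kinase, fell from 12.6 ± 0.879 to 6.91 ± 0.686 CPM (log2 fold change −0.87, FDR = 6.77e-05, edgeR). *Prex1*, an exchange factor that activates Rac downstream of G proteins, fell from 822 ± 25.6 to 609 ± 2.14 CPM. *Arrb2*, which encodes a beta-arrestin that turns receptors off and internalizes them, fell from 667 ± 12.9 to 502 ± 30.7 CPM.

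Of 18 tested enzymes that cut chemokines, 5 were higher and 3 lower, and their median was 0.13 on the log2 scale. *Mmp14* fell from 87.1 ± 4.54 to 40.4 ± 2.22 CPM and *Mmp9* from 51.4 ± 9.17 to 16.7 ± 0.857 CPM, both matrix metalloproteinases. *Anpep*, an aminopeptidase, rose from 927 ± 11.9 to 1524 ± 97.3 CPM. The enzyme *Dpp4*, which trims the ends of several chemokines, rose from 0.167 ± 0.119 to 0.727 ± 0.206 CPM (log2 fold change 2.13, FDR = 0.00618, edgeR). It was near the floor in WT, at 0.0806, 0.304 and 0.118 CPM in replicates 1, 2 and 3. *Dpp4* and *Prtn3*, another of the 5 higher, passed the filter only through their Scd2-KO libraries.

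Of 25 tested genes of other leukocyte attractants and their receptors, 2 were higher and 8 lower, with a median of −0.10. Of the 2 higher, *Ltb4r1* passed the filter only through its Scd2-KO libraries. It had 0.0806, 0.195 and 0.197 CPM in WT and 0.591, 0.298 and 0.533 CPM in Scd2-KO libraries. The formyl peptide receptors *Fpr1* and *Fpr2* had log2 fold changes of −1.67 and −1.58. *Cmklr1*, the receptor of chemerin, fell from 98.4 ± 8.80 to 67.3 ± 3.48 CPM. Of 37 regulators of chemokine transcripts, 2 (*Irf7* and *Stat2*) were higher and 15 lower, with a median of −0.16. *Nfkbiz*, an atypical inhibitor of kappa-B protein, fell from 112 ± 11.6 to 59.2 ± 4.57 CPM, *Fosl2* from 49.9 ± 1.67 to 30.7 ± 0.753 CPM and *Cebpd* from 116 ± 2.37 to 75.1 ± 2.84 CPM. In this list *Nfkb1*, *Nfkb2*, *Relb*, *Nfkbia* and *Irf1* were also called lower, with log2 fold changes between −0.38 and −0.28. Among those not called were *Rela* (FDR = 0.146 by edgeR), *Rel* (FDR = 0.176 by edgeR), *Nfkbib*, *Bcl3*, *Ikbkb*, *Ikbke*, *Chuk* and *Ikbkg*. The 4 lists had 42.9%, 44.4%, 40.0% and 45.9% of their tested genes called, beside 17.5% of all genes tested. They hold abundant genes and also genes below 1 CPM in WT, such as *Dpp4*. The part of expression level in these shares was not tested.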

How the data were processed

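RNA of 3 WT and 3 Scd2-KO BMDM samples was poly(A)-selected and sequenced, 1 library each. The authors aligned reads with STAR to the mouse Ensembl release 76 primary assembly and deposited raw gene counts as whole numbers. For the counting tool and its strand setting, the sources used here give nothing. The submitters' own comparison table (fold changes, p-values and log2 CPM per library) was not used.

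Of 40757 entries, 276 repeated a gene with equal counts and were removed. Genes passing filterByExpr were tested with edgeR 4.0.16 (TMM factors, glmQLFit with robust estimation, glmQLFTest, R 4.3.3), with Benjamini-Hochberg adjustment over 14778 genes. The standard error is the log2 fold change divided by the square root of F. The test was checked on simulated counts. Positions and exonic lengths come from GENCODE (GRCm38) and were found for all 69 genes, and upstream sequences from RefSeq.

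Alternatives were other factors (RLE, upper-quartile), DESeq2 1.42.0, limma-voom (limma 3.58.1), other filters and thresholds, halved counts, protein-coding genes alone, the replicate number as a block, and each library left out. A gene of the family was kept in all fits and counts and is not reported here by itself. The genes described, the pathway and marker lists and the tests were chosen with earlier results of these data known. Named are *Scd2*, *Ccl2*, called genes of the family, those among its 10 highest by RPKM, those near the threshold or with an absolute log2 fold change above 1, and up to 3 called genes of smallest p per list. *Dpp4*, *Prtn3*, *Ltb4r1*, *Flt3*, *Cenpf*, *Zmynd15*, the regulators named without levels and the other family genes given with values were chosen after their values were seen. Same-genotype libraries were not duplicates of each other (chi-square 10.4 to 31.9 per gene). Among counts of 1 to 20, 60.9% to 64.8% were even, so what 1 count stands for is not known.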

Additional observations from a re-analysis of the deposited data

How the results depend on the processing

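With RLE or upper-quartile factors, limma-voom, DESeq2, the other filters on low counts, halved counts and protein-coding genes alone, the count of all called genes stayed within 1.5 times the 2585 of the comparison as reported, and that of family genes was 7 to 9 higher and 5 to 6 lower. At an FDR below 0.01, 1331 genes were called, among them 5 family genes higher and 6 genes of receptor signalling. At an FDR below 0.05 with an absolute log2 fold change above 2, 98 genes were called, with 2 family genes higher, 0 lower, 0 of receptor signalling, 2 processing enzymes, 0 other attractants and 0 regulators. The 2 enzymes, *Prtn3* and *Dpp4*, passed the filter only through their Scd2-KO libraries. Leaving out a library gave 1440 (without Scd2-KO replicate 2; 1490 without WT replicate 2) to 2567 called genes, 5 (without WT replicate 2) to 9 family genes higher and 4 to 7 lower, 6 to 20 of receptor signalling, 6 to 8 processing enzymes, 7 to 12 other attractants and 16 to 19 regulators. Such fits have fewer samples.

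The replicate numbers were not taken as pairs. Deviations from the group means correlated at 0.10, −0.05 and 0.08 for replicates 1, 2 and 3, and WT replicates 1, 2 and 3 correlated best with Scd2-KO replicates 1, 3 and 3. With the replicate number as a block 2974 genes were called, with 10 family genes higher and 6 lower (*Ccl24*, FDR = 0.0409, and *Cxcl14*, FDR = 9.44e-09, added).

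Genes not called changed sign as follows, and the cause was not tested. With upper-quartile factors *Ccr10* was at 1.1e-04. Leaving out a library gave −0.69 to 0.056 for *Cx3cr1*, −0.027 to 0.26 for *Ccl3*, −0.15 to 0.37 for *Ccl12*, −0.17 to 0.31 for *Ackr4*, −0.42 to 0.19 for *Cxcr5*, −0.34 to 0.57 for *Ccr9*, −0.12 to 0.053 for *Ccr10*, −0.054 to 0.53 for *Cxcl3* and −0.19 to 0.051 for *Cx3cl1*. Genes below 1 CPM rest on few counts.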

Other observations

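Libraries of a genotype differed among themselves in chemokine genes that were not called between the genotypes. WT replicate 1 had the highest WT level of *Cxcl14* (51.2 CPM, against 17.4 CPM in WT replicate 3), of *Cx3cr1* (115 against 45.8 CPM) and of *Cxcl2* (23.9 against 17.5 CPM). It had the lowest WT level of *Ccl2* (2.70 against 5.45 CPM), of *Cxcl10* (15.2 against 26.2 CPM), of *Ccl7* (0.121 against 0.374 CPM) and of *Ccl12* (0.524 against 0.925 CPM). In each of these 7 genes WT replicate 2 lay between the other two. Among the Scd2-KO libraries, replicate 1 also had the highest level of *Cxcl14* (9.53 CPM, against 4.34 CPM in replicate 3) and *Cx3cr1* (61.2 against 47.4 CPM). It also had the lowest level of *Cxcl10* (20.2 against 23.6 CPM), *Ccl7* (0.215 against 0.619 CPM), *Ccl12* (0.538 against 0.981 CPM) and *Ccl2* (4.64 against 4.73 CPM). *Cxcl2* was lowest there (16.1 against 18.1 CPM), unlike in WT. Samples of a genotype have no order, and these genes were chosen after their values were seen.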
